A study of Homo sapiens with 6 samples.

Results

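The 10 genes described here encode the 5 subunits of the transcription factor NF-kB (NFKB1, NFKB2, REL, RELA and RELB), 3 inhibitors of the IkB family (NFKBIA, NFKBIB and NFKBIE) and 2 ubiquitin regulators that act as feedback in the pathway (TNFAIP3 and BIRC3). They were taken by symbol, and all 10 were found among the 26255 genes of the deposited tables. RNA was sequenced from 22RV1 cells, a human castration-resistant prostate cancer (CRPC) line. The cells were kept in full medium, RPMI with 10% FBS, and were exposed for 24 h to the vehicle DMSO (3 samples) or to 10 nM bruceantin (BCT, 3 samples), a plant quassinoid that the study investigated as an inhibitor of androgen receptor signaling. A single cell line, a single dose and a single time were sampled, and no source states that the 3 samples of a group came from separate cultures, so p-values measure only the spread between these samples, which may be technical. Levels are FPKM, the fragments of a gene scaled by transcript length and by the mapped fragments of the sample, as the authors deposited them.

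NF-kB is a dimer of subunits that share the Rel homology domain. In resting cells IkB proteins hold most dimers in the cytoplasm, and signals that activate the IkB kinase complex lead to the ubiquitination and destruction of IkB and to entry of the dimer into the nucleus. In the canonical arm the main dimer is RELA with the product of NFKB1, whereas in the non-canonical arm the kinase MAP3K14 triggers processing of the NFKB2 precursor, which pairs with RELB. Several genes of the pathway, among them NFKBIA, TNFAIP3, BIRC3, NFKB1, NFKB2, REL and RELB, are known targets of NF-kB themselves, which closes feedback loops around it.

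The promoter sequences of the feedback genes are shown because these loops run through NF-kB sites in them. RefSeq promoter windows (GRCh38.p14, 250 bases before to 50 after an annotated start) existed for 8 of the 10 genes, 13 windows in all. A search for the 10-base NF-kB consensus on both strands found a match in at least 1 window of 7 genes. The same search found a match in 5.91% of all 35116 windows of that length and in 7.09% of the 27305 genes that have one. Below, the 250 bases before the start are given for the inhibitor NFKBIA and the ubiquitin regulators TNFAIP3 and BIRC3, and 60 bases around the match for the subunits NFKB1 and REL. Each is written 5′ to 3′ on the strand of its gene, and capitals mark bases that belong to a match on either strand.
NFKBIA (chr14:35404750-35404999, minus strand): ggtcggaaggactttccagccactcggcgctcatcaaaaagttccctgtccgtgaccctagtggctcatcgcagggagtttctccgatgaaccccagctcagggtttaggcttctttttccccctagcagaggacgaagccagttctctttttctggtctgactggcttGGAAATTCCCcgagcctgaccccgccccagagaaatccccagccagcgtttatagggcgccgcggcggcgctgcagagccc
TNFAIP3 (chr6:137867009-137867258, plus strand): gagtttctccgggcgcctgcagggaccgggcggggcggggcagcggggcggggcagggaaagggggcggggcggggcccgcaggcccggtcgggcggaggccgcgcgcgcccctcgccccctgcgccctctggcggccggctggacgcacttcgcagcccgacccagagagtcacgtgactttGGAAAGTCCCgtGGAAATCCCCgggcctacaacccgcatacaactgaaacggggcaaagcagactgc
BIRC3 (chr11:102317234-102317483, plus strand): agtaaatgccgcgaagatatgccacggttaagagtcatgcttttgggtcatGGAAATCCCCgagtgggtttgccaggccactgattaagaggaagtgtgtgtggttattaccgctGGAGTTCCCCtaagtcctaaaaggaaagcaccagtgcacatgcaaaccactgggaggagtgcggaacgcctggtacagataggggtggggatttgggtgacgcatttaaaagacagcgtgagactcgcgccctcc
NFKB1 (chr4:102501290-102501349, plus strand): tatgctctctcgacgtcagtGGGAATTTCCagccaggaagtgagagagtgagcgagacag
REL (chr2:60881507-60881566, plus strand): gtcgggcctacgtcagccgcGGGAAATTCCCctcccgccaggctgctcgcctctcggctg

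With the start counted as 0, the match in NFKBIA lay at -81 to -72 on the opposite strand, and those in TNFAIP3 lay at -67 to -58 and -55 to -46, also on the opposite strand. BIRC3 held matches at -199 to -190 and -135 to -126 on the opposite strand. In REL, matches on the gene's strand and the opposite strand overlapped, over -47 to -37, and NFKB1 held 1 match on its own strand at -49 to -40 of the first of its 2 windows. NFKB2 had matches in 2 of its 3 windows and NFKBIB in 1 of 2, with overlapping matches on both strands at -28 to -18. Neither window of RELA held one. RELB and NFKBIE were not analysed here. A match describes the letters of the window, and binding was not measured in these samples.

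The level of each gene was compared between BCT-treated and DMSO-treated cells with limma on log2(FPKM + 0.1), over all 12729 genes whose mean was 1 FPKM or more, with Benjamini-Hochberg adjustment to a false discovery rate (FDR). A gene was called higher or lower where its log2 fold change went beyond 0.85 in that direction with an FDR under 0.05. Of the 10 genes, 9 were tested, since TNFAIP3 had a mean under 1 FPKM, and RELB and BIRC3 passed that filter only through their levels with BCT. NFKB1, REL, RELA, RELB and BIRC3 were called higher in BCT-treated cells and no member was called lower. Over all genes tested, 13.9% were called higher and 17.8% lower, and the FDR alone was passed by 82.1% of them and by 7 of the 9. Every BCT sample lay above every DMSO sample in 8 of the 9, a pattern shown by 41% of all genes tested.

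The samples differed in ways that touch these values. FPKM summed to 1169649 to 1572321 with DMSO and 757534 to 799838 with BCT, and a single small RNA gene, MIR6087, held 43.5% to 55.3% of it in DMSO samples and 31.7% to 32.5% in BCT samples. FPKM holds no read counts, and relative to DMSO replicate 1 the depth was 0.883 to 1 in DMSO samples and 1.06 to 1.13 in BCT samples. BCT replicate 1 stood apart from the other BCT samples on the first principal component, which held 72% of the variance (40.2 against 65 and 63.8). It was the lowest BCT sample in 9 of the 10 genes, and without it the same number, 5 members, was called higher. Of 8 markers of a prostate epithelial line, 7 were at or above 1 FPKM in every sample. Of leukocyte markers 7 of 8 stayed below 1 FPKM throughout, as did 4 of 6 fibroblast and 5 of 5 endothelial markers; no listed marker was at 0 in all 6 samples. The summed leukocyte markers ran from 2.95 to 3.83 FPKM with DMSO and from 6.2 to 9.33 with BCT, mostly CD68, and the summed fibroblast markers from 2.62 to 2.79 and from 5.87 to 7.13, mostly COL1A1. The summed endothelial markers ran from 0.022 to 0.074 and from 0.064 to 0.138 FPKM, and the summed prostate markers from 932 to 949 and from 1836 to 1993. The part of these shifts in the results was not tested. In bulk RNA, fewer cells of a type and less RNA per cell cannot be told apart.

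RELA, which carries the transactivation domain of the canonical dimer, was the most abundant subunit in every sample and was about 2.16-fold higher with BCT. The gene lies on hg19 at chr11:65421067-65430443, minus strand. Its level was 27.7, 29.7 and 30.5 FPKM in DMSO replicates 1 to 3 and 59.8, 66 and 63.9 FPKM in BCT replicates 1 to 3. The groups were far apart relative to their spread, 29.3 ± 1.42 against 63.2 ± 3.16 FPKM (SD, n = 3 each). The log2 fold change was 1.11 (SE 0.059, 95% interval 0.97 to 1.24, limma FDR 1.2e-06), and 8.85% of the genes tested had a larger one.

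NFKB1 encodes the precursor whose processed product pairs with RELA, and with the values as deposited its change had nearly the same size. The gene spans chr4:103422486-103538459, plus strand. The samples held 9.85, 10.1 and 9.22 FPKM with DMSO and 19.4, 22.4 and 21 FPKM with BCT, without overlap. From means of 9.73 ± 0.455 and 20.9 ± 1.47 FPKM (SD, n = 3), the log2 fold change was 1.10 (SE 0.068, 95% interval 0.94 to 1.25, limma FDR 2.0e-06). Corrected for GC content and transcript length, the change of NFKB1 was 0.86, barely past the threshold, and that of RELA was 1.32.

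REL, a subunit best known from lymphocytes, was expressed at a low level and was called higher, less firmly than RELA and NFKB1. It lies at chr2:61108630-61155291, plus strand. DMSO samples held 2.91, 2.99 and 2.65 FPKM and BCT samples 4.99, 6.32 and 6.56 FPKM, with BCT replicate 1 below the other BCT samples. The log2 fold change of 1.03 (SE 0.113, 95% interval 0.77 to 1.29, limma FDR 4.3e-05) fell to 0.73 after correction for GC content and transcript length, which is under the threshold. REL also shares sequence with other genes: 31.4% of the 100-base stretches of its annotated transcripts occur in transcripts of 77 other genes, so its level is uncertain where reads could be split.

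The non-canonical subunits differed from each other. NFKB2, the precursor that MAP3K14 causes to be processed, lies at chr10:104153867-104162286, plus strand. Its level was 20.7, 21.5 and 21.3 FPKM with DMSO and 24.2, 31.8 and 28.1 FPKM with BCT. All BCT samples were above all DMSO samples, but the log2 fold change of 0.40 (SE 0.092, 95% interval 0.18 to 0.61, limma FDR 0.0036) was under the threshold, and 29.9% of all genes tested had a larger one. After correction for GC content and transcript length it was 0.73, still under the threshold.

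RELB, the partner of NFKB2, was the scarcest subunit in both groups and had the largest fold change among the 5. It lies at chr19:45504707-45541456, plus strand. In DMSO samples it was below 1 FPKM, at 0.774, 0.888 and 0.868, and in BCT samples it was 3.18, 4.68 and 3.99 FPKM. The means of 0.843 ± 0.0609 and 3.95 ± 0.753 FPKM (SD, n = 3) differed 4.68-fold. The log2 fold change was 2.09 (SE 0.153, 95% interval 1.73 to 2.44, limma FDR 4.5e-06), exceeded by 1.85% of genes tested, and it fell to 1.41 with a pseudocount of 1.

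None of the IkB inhibitors was called, and no difference was detected for NFKBIA. NFKBIA, the inhibitor that is destroyed first when the pathway is activated and rebuilt by NF-kB, lies at chr14:35870716-35873960, minus strand. It held 38, 34.5 and 38.7 FPKM with DMSO and 35, 37 and 40.5 FPKM with BCT. It was the only member whose groups overlapped, with means of 37.1 ± 2.23 and 37.5 ± 2.82 FPKM (SD, n = 3). The log2 fold change of 0.01 (SE 0.071, limma FDR 0.86) had a 95% interval of -0.15 to 0.18, which contains neither the change of RELA nor that of NFKB1.

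NFKBIB, an inhibitor with slower turnover, is listed at chr19:39369195-39399534, plus strand. Its samples held 21.1, 20.4 and 21 FPKM with DMSO and 34.2, 39 and 34.2 FPKM with BCT. All BCT samples were higher, and the log2 fold change of 0.77 (SE 0.063, 95% interval 0.63 to 0.92, limma FDR 7.9e-06) fell just under the threshold. It passed the threshold at 1.02 after correction for GC content and transcript length. The deposited interval of NFKBIB is identical to that of SIRT2 on the opposite strand. SIRT2 moved the other way, from 22.7, 22.3 and 24.2 FPKM with DMSO to 18.4, 16.2 and 16.1 FPKM with BCT (log2 fold change -0.45, SE 0.067, limma FDR 2.8e-04). The library kit does not mark strand, so reads from the region where these genes overlap cannot be told apart and both levels are uncertain.

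NFKBIE, the inhibitor that chiefly binds REL and RELA dimers, lies at chr6:44225903-44233525, minus strand. DMSO samples held 4.69, 4.46 and 4.56 FPKM and BCT samples 5.24, 4.8 and 4.71 FPKM. The BCT samples lay just above the DMSO samples, and the log2 fold change of 0.10 (SE 0.071, 95% interval -0.06 to 0.26, limma FDR 0.21) did not pass the test. After correction for GC content and transcript length it was 0.37 (limma FDR 4.3e-04), which passes the FDR but not the fold change threshold. NFKBIE was the only gene of the 10 in which BCT replicate 1 was the highest BCT sample.

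The ubiquitin regulators were the scarcest members with DMSO and showed the largest fold changes. BIRC3, an E3 ubiquitin ligase that acts at the tumor necrosis factor receptor and restrains MAP3K14, lies at chr11:102188181-102210135, plus strand. DMSO samples held 0.335, 0.358 and 0.443 FPKM and BCT samples 2.3, 3.76 and 3.4 FPKM. The means of 0.379 ± 0.0569 and 3.15 ± 0.761 FPKM (SD, n = 3) differed 8.32-fold. The log2 fold change was 2.74 (SE 0.211, 95% interval 2.26 to 3.23, limma FDR 5.7e-06), exceeded by 0.864% of the genes tested, and its size rested on the pseudocount, falling to 1.57 with a pseudocount of 1.

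TNFAIP3, a ubiquitin-editing enzyme that shuts off signaling upstream of the IkB kinases, is listed at chr6:138144807-138204451, plus strand. It held 0.225, 0.212 and 0.239 FPKM with DMSO and 1.36, 1.72 and 1.41 FPKM with BCT, with no overlap between groups. Its mean over all samples was below the filter. In a fit of every gene above 0 in any sample, of which 12.3% were called higher, its log2 fold change was 2.29 (SE 0.142, 95% interval 1.95 to 2.62, limma FDR 1.5e-05). At such levels fold changes on log2(FPKM + 0.1) understate the ratio of the means, which was 6.63. The interval listed for TNFAIP3 is the same as that of LOC100130476, which was at 0 to 0.106 FPKM in all samples.

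**Figure D1:**
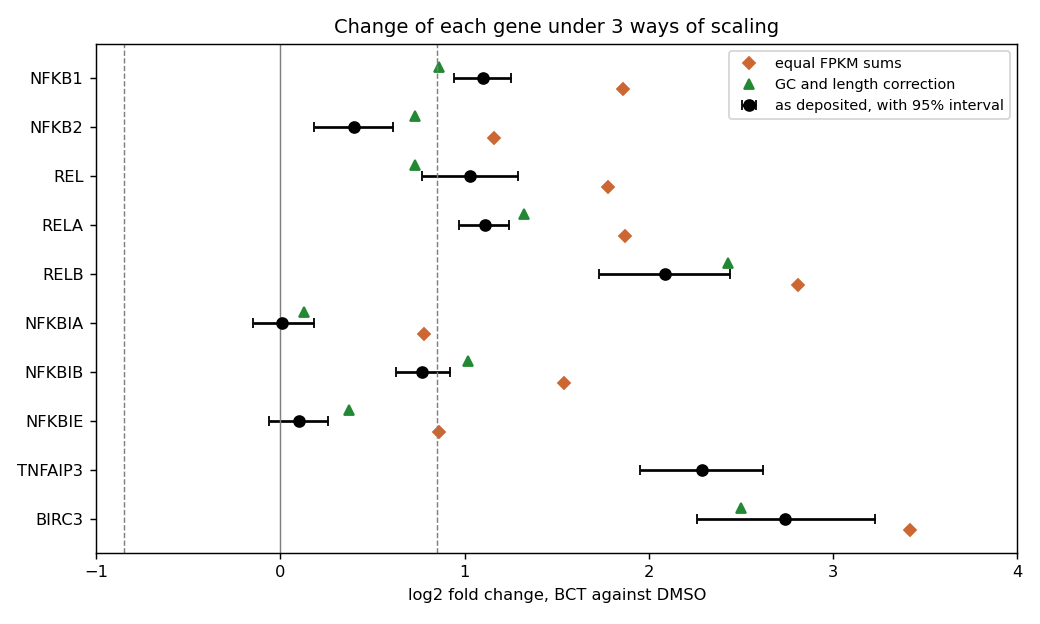
Log2 fold change of each gene, BCT against DMSO, with the values as deposited (black, bars are 95% intervals), after scaling every sample to the same FPKM sum (orange) and after correction for GC content and transcript length (green). Dashed lines are the thresholds of -0.85 and 0.85, and TNFAIP3 has only the value from the fit without a filter. NFKBIA is the lowest value under each scaling.

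Scaling every sample to the same FPKM sum, in which MIR6087 weighs heavily, moved the median change over all genes tested from -0.04 to 0.72 (log2), and 8 members were then called higher, with NFKBIA at 0.78 the exception among the 9 tested. Relative to that median, the change of RELA was 1.15 and that of NFKBIA 0.06, beside 1.14 and 0.05 with the values as deposited. Of all calls, 56.2% were lower as deposited and 10.6% after this scaling.

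The order of the genes by level differed between the groups. With DMSO, NFKBIA was the most abundant of the 10 at a mean of 37.1 FPKM, ahead of RELA at 29.3, and the ranges of their samples did not overlap. NFKB2 and NFKBIB followed at 21.1 and 20.9 FPKM with overlapping ranges, then NFKB1 at 9.73, NFKBIE at 4.57 and REL at 2.85. RELB, BIRC3 and TNFAIP3, in that order, lay below 1 FPKM, and no ranges other than those of NFKB2 and NFKBIB overlapped between neighbours.

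With BCT, RELA came first at 63.2 FPKM, above NFKBIA and NFKBIB, whose ranges overlapped at means of 37.5 and 35.8 FPKM. NFKB2 and NFKB1 followed at 28 and 20.9 FPKM, each apart from its neighbours. REL and NFKBIE were not separable (5.95 and 4.92 FPKM), nor were RELB and BIRC3 (3.95 and 3.15 FPKM), and TNFAIP3 stayed last at 1.49 FPKM. FPKM is scaled by length, so levels of different genes are set side by side here. Scaling by length does not correct for GC content, and the levels of REL and NFKBIB carry the uncertainties given above.

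Summed over the 5 subunits, the level was 61.9 to 65.2 FPKM with DMSO and 112 to 131 FPKM with BCT. RELA alone gave 44.8% to 47.3% of the subunit level in DMSO samples and 50.3% to 53.6% in BCT samples. The share of NFKB2 was 33% to 33.4% with DMSO and 21.7% to 24.2% with BCT, and that of RELB was 1.25% to 1.36% with DMSO and 2.85% to 3.57% with BCT. The share of NFKB1 was 14.3% to 15.9% with DMSO and 17% to 17.4% with BCT. Among the IkB genes, whose sum was 59.4 to 64.3 FPKM with DMSO and 74.4 to 80.8 FPKM with BCT, NFKBIA held 58.1% to 60.2% with DMSO and 45.8% to 51% with BCT.

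Ratios within a sample do not depend on how the sample was scaled, so 4 of them were compared with a two-sided exact permutation test. The log2 ratio of the summed IkB genes to the summed subunits was 0.05, -0.13 and 0.00 in DMSO samples and -0.59, -0.70 and -0.64 in BCT samples, a difference of -0.61. The IkB sum thus equalled 0.979 of the subunit sum with DMSO and 0.642 of it with BCT (geometric means). The log2 ratio of NFKB2 to NFKB1 was 1.07, 1.09 and 1.21 with DMSO and 0.32, 0.50 and 0.42 with BCT. That difference of -0.71 shrank to -0.13 after correction for GC content and transcript length (exact permutation p = 0.2), where the groups no longer lay fully apart.

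For RELB, of the non-canonical arm, to RELA, of the canonical arm, the log2 ratios were -5.16, -5.06 and -5.13 with DMSO and -4.23, -3.82 and -4.00 with BCT. RELB thus stood at 0.0288 of the level of RELA with DMSO and at 0.0618 of it with BCT (geometric means). The log2 difference of 1.10 fell to 0.33 with a pseudocount of 1, since RELB was below 1 FPKM with DMSO. The log2 ratio of NFKBIA to NFKBIB was 0.85, 0.76 and 0.88 with DMSO and 0.03, -0.08 and 0.24 with BCT, and it carries the uncertainty of NFKBIB given above. With the values as deposited, the DMSO and BCT samples lay apart in all 4 ratios. Each test gave p = 0.1 (exact permutation, adjusted p = 0.1 over 4 ratios), which is the smallest p that 3 samples against 3 allow, so none could pass 0.05. The ratio of NFKBIA to RELA, chosen after its values were seen and not tested, went from a geometric mean of 1.27 with DMSO to 0.592 with BCT.

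**Figure D2:**
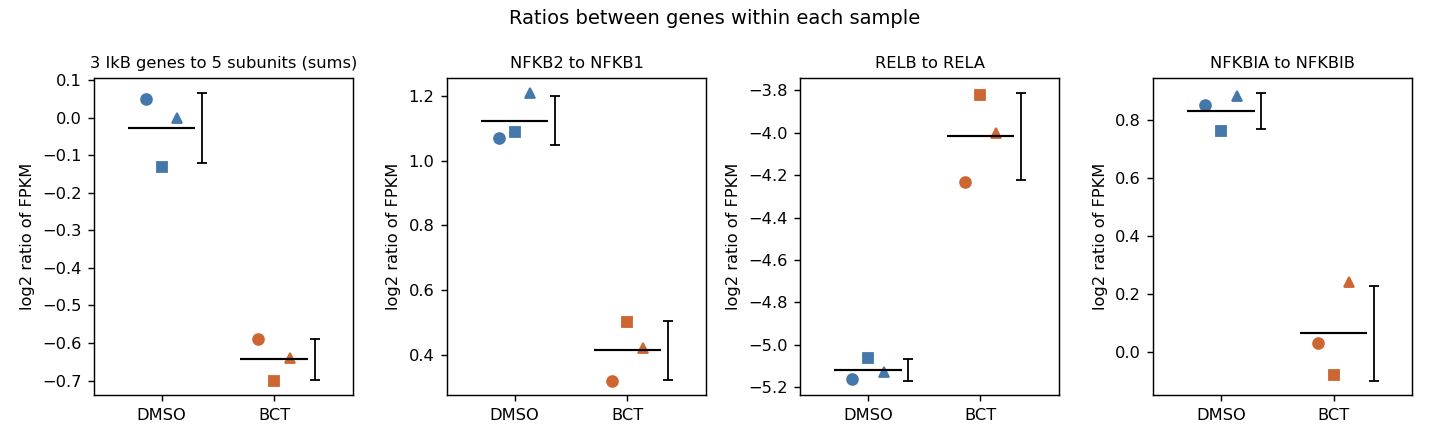
Log2 ratios of FPKM between genes within each of the 3 DMSO and 3 BCT samples. Circles, squares and triangles are replicates 1, 2 and 3, lines are means and bars are SD; the vertical axes differ and do not start at 0. In each panel the groups lie apart with the values as deposited, with the ratio of RELB to RELA higher and the other ratios lower with BCT.

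The profile of NFKBIA over the 6 samples, centred on its mean, lay nearest by Euclidean distance of log2 values to those of C5orf15 (0.07), BACH1 (0.10) and TM2D1 (0.11), where the median distance over tested genes was 0.77. That of RELA lay nearest to C7orf26 (0.06), ZCCHC4 (0.07) and USP36 (0.07), against a median of 1.46. These neighbours of RELA had log2 fold changes of 1.06, 1.16 and 1.14. Since the nearest genes were picked for their small distances, lying below the median was given by that choice.

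The rest of the pathway was described with 6 lists of 101 genes from ligands to targets, of which 99 were in the tables and 61 were tested. Of these, 13 were called higher and 6 lower, with a median log2 fold change of 0.25, beside -0.04 over all genes tested, of which 13.9% were called higher and 17.8% lower. The counts of single lists below are small and are read against those shares. All lists were chosen with earlier results of these data known, and no list was tested as a set. None of the 10 ligands, such as TNF, IL1B and CD40LG, reached 1 FPKM in any sample and none was tested. Among them LTA went from a mean of 0.0507 to 0.569 FPKM and TNF from 0.0237 to 0.137 FPKM, both named after their values were seen.

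Receptors and adaptors moved in both directions, with 2 called higher and 4 lower of 15 tested and a median of -0.08. TNFRSF12A, the receptor for the cytokine TWEAK, held 20.6, 20.9 and 21.8 FPKM in DMSO samples and 252, 321 and 272 FPKM in BCT samples. This was the largest change among the listed genes tested, with a log2 fold change of 3.72 (SE 0.086, limma FDR 1.3e-07). TRAF6, the adaptor of the interleukin-1 and Toll-like receptors, was the other gene called higher, with a log2 fold change of 1.05 (SE 0.095, limma FDR 1.4e-05). TNFRSF13C, the receptor for BAFF, which was below 1 FPKM with BCT, fell by 2.54 and IL1R1, the receptor for interleukin-1, fell by 1.96 on the log2 scale. The adaptor TRAF5 fell by 1.05, from 2.33, 2.57 and 2.61 FPKM with DMSO to 1.42, 0.866 and 1.25 FPKM with BCT. TRADD, the remaining gene called lower, fell by 1.04 (SE 0.12, limma FDR 5.0e-05). It went from 13, 12.9 and 13.5 FPKM with DMSO to 7.82, 5.88 and 5.57 FPKM with BCT.

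Of the 11 kinases and their partners 2 were called higher, none was called lower, and the median was 0.42. MAP3K14, the kinase of the non-canonical arm, held 5.98, 6.38 and 5.64 FPKM in DMSO samples and 12.7, 15.3 and 13.5 FPKM in BCT samples (log2 fold change 1.19, SE 0.081, limma FDR 3.1e-06). TAB2, which links ubiquitin chains to the kinase MAP3K7, had a log2 fold change of 0.87. The IkB kinase complex itself was not called. Log2 fold changes were -0.33 for IKBKB (limma FDR 0.0011), 0.09 for CHUK (limma FDR 0.21) and 0.42 for IKBKG, the regulatory subunit (limma FDR 0.0017). All BCT samples lay below all DMSO samples for IKBKB and above them for IKBKG, and the groups overlapped for CHUK.

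In the ubiquitin machinery 1 of 11 genes tested was called higher and none lower, with a median of 0.25. That gene was BIRC2, which neighbours BIRC3 on the chromosome and encodes a closely related ligase. It held 18.2, 17.6 and 18.2 FPKM in DMSO samples and 34.4, 37.9 and 40.3 FPKM in BCT samples (log2 fold change 1.05, SE 0.065, limma FDR 2.0e-06). BIRC2 was thus far more abundant than BIRC3 in every sample, and no 100-base stretch of BIRC3 transcripts occurs in BIRC2.

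Other inhibitors and modulators had the highest median, 0.76, with 5 of 13 called higher and none lower. Among these 5, ZC3H12A, with means of 0.673 FPKM with DMSO and 1.49 FPKM with BCT, passed the filter only through BCT. The atypical nuclear IkB proteins BCL3 and NFKBIZ, which act on NF-kB dimers at promoters, led the list. BCL3 went from 8.81, 9.36 and 9.49 FPKM with DMSO to 27, 27.9 and 26.6 FPKM with BCT (log2 fold change 1.55, SE 0.053, limma FDR 3.1e-07), and NFKBIZ from 8.31, 9.02 and 8.16 to 21, 24.7 and 26.4 FPKM (log2 fold change 1.48, SE 0.089, limma FDR 1.8e-06). ITCH, a ubiquitin ligase that works with TNFAIP3, and NFKBIL1 had log2 fold changes of 1.07 and 1.06.

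Of 31 targets in the tables, 16 stayed below 1 FPKM in every sample and 11 were tested, with 3 called higher, 2 called lower and a median of 0.17. The cytokine LIF held 0.585, 0.586 and 0.682 FPKM in DMSO samples and 4.08, 5.26 and 4.71 FPKM in BCT samples (log2 fold change 2.73, SE 0.13, limma FDR 9.2e-07). Like RELB and BIRC3, it passed the filter only through its level with BCT. GADD45B, a stress-response gene, rose with a log2 fold change of 1.07. In contrast, the transcription factor MYC went from 118, 118 and 130 FPKM to 30.9, 23.1 and 27 FPKM and fell by 2.18 on the log2 scale (SE 0.1, limma FDR 7.8e-07). SOD2, the mitochondrial superoxide dismutase, went from 75.1, 74.9 and 72.2 FPKM to 27.4, 26.2 and 25.3 FPKM and fell by 1.49 (SE 0.051, limma FDR 3.0e-07). The targets therefore moved in both directions.

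**Figure D3:**
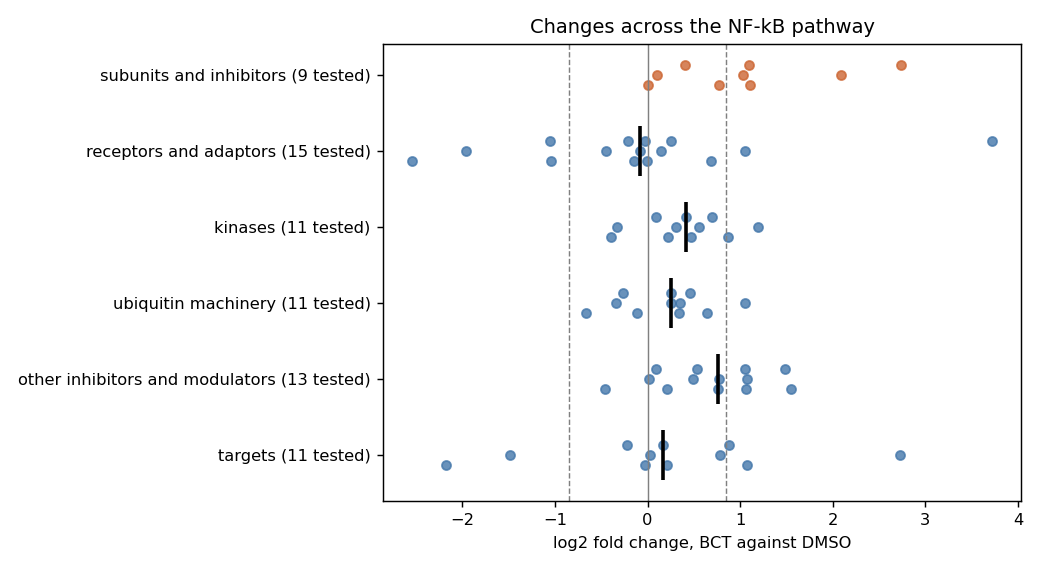
Log2 fold change, BCT against DMSO, of each tested gene among the subunits and inhibitors (orange) and in 5 lists of other pathway genes (blue). Black bars are medians of the lists and dashed lines the thresholds of -0.85 and 0.85. The list of other inhibitors and modulators has the highest median of the 5 lists, 0.76, and the points of the receptors and adaptors spread widest.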

How the data were processed

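Total RNA of the 6 samples was made into TruSeq RNA v2 libraries, which do not mark strand, and sequenced as paired-end reads. Per the paper and the submitters' processing notes, reads were trimmed with Trimmomatic 0.38, aligned to hg19 with HISAT2 and assembled with StringTie; the notes also name CASAVA and HTSeq. The gene annotation is not given in the sources used here. The authors deposited 1 table of FPKM values per sample, each listing the same 26255 genes, so the read depth of single samples was estimated only as a ratio between them; the study states an average over samples.

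From these values log2(FPKM + 0.1) was computed for 12729 genes whose mean was 1 FPKM or more, and limma 3.58.1 (R 4.3.3) was fitted with moderated variances following a trend on the mean and Benjamini-Hochberg adjustment over all genes tested. No covariate was used. The call thresholds, 0.85 for the log2 fold change and 0.05 for the FDR, are those of the study's results text; its methods give a stricter FDR of 0.01, which was run as an alternative. The 4 ratios were compared by an exact permutation test in SciPy 1.17.1. Simulated data with known changes were used to test the limma step. Positions are those of the deposited tables on hg19, with 1 added to the start, and promoter windows are RefSeq sequence on GRCh38.p14, a different build. GC content and transcript length, for 97.4% of the genes tested, came from GENCODE and were used for a loess correction (span 0.5).

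The 10 genes, the pathway lists and the marker lists were chosen with earlier results of these data known. Named were all 10 genes, from each list at most 4 called genes with the largest change, and the 3 nearest profiles of NFKBIA and of RELA. The IkB kinase subunits, LTA, TNF, TRAF6, TRADD, ZC3H12A, SIRT2, LOC100130476 and MIR6087 were named after their values were seen. Alternatives covered the pseudocount, the filter, the scaling, the FDR, how variances were moderated, limma's treat, the replicate block, the omission of single samples, and the GC and length correction.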

Additional observations from a re-analysis of the deposited data

How the results depend on the processing

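Of 194 recomputed changes of single members, 181 kept their direction and stayed called or not called. The FDR alone could still move among these. For NFKBIA the limma FDR was 0.86 as deposited and 3.7e-06 with equal FPKM sums. With equal FPKM sums 6282 genes, 8 members, 38 pathway genes higher and 3 lower were called, and NFKB2 (1.16), NFKBIB (1.54) and NFKBIE (0.86) passed the threshold. With equal sums without MIR6087, 23 pathway genes were higher, NFKBIB was at 1.16, and 26.4% of all calls were lower (3370 genes higher and 1208 lower). The test against the fold change threshold called 2425 genes and 8 pathway genes higher. A filter at a mean of 5 FPKM left 2 members called higher, since REL, RELB, NFKBIE and BIRC3 were not tested there, with 3 pathway genes lower and 1150 genes higher in all, and no filter gave 2657 higher. REL lost its call with a pseudocount of 1 (0.85), in the test against the threshold (FDR 0.31) and after the GC and length correction, which also put NFKBIB past the threshold (1.02) and brought the ratio of NFKB2 to NFKB1 from -0.71 to -0.13; the cause was not tested. NFKBIA was at 0.78 with equal sums and 0.40 with equal sums without MIR6087. It changed sign when centred on the median (0.00), and with 1 sample left out it ranged from -0.04 to 0.06; it was -0.04 without DMSO replicate 2 and -0.04 without BCT replicate 3. Leaving out 1 sample gave 3834 to 4420 called genes and 5 members each time.

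Whether the replicate numbers pair the samples is not known. Deviations from the group means correlated at 0.116, 0.0328 and 0.0342 between same-numbered samples and at -0.115 to 0.074 between the others. DMSO replicate 2 correlated best with BCT replicate 3 (0.074). With 3 samples in each group, such correlations cannot decide whether there was a pairing. A fit with the replicate block called 4033 genes, no member changed its call, and for the ratios the smallest p of 3 pairs was 0.25. Count models were left out because FPKM is not a count. Without read counts, the counting error behind the low levels of RELB, TNFAIP3 and BIRC3 with DMSO is not known.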

Other observations

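The receptor and adaptor families to which several listed genes belong were also read as whole families, a choice made after values were seen. Of 21 genes of the TNF receptor superfamily with a TNFRSF symbol, 10 were tested, 2 were called higher and 2 lower, with a median log2 fold change of 0.06; over all genes tested, 13.9% were called higher and 17.8% lower. Besides TNFRSF12A, the gene called higher was TNFRSF11B, the decoy receptor osteoprotegerin, at 0.994 ± 0.0864 FPKM with DMSO and 5.06 ± 0.736 FPKM with BCT (SD, n = 3; log2 fold change 2.23). Like RELB, BIRC3 and LIF, TNFRSF11B passed the filter only through its level with BCT. Besides TNFRSF13C, TNFRSF18 was called lower, from 15 ± 1.57 to 5.48 ± 0.866 FPKM (log2 fold change -1.45). Of the 7 TRAF genes 6 were tested, 1 was higher (TRAF6) and 2 were lower, TRAF5 and TRAF7, the latter from 53.1 ± 1.78 to 24.8 ± 2.79 FPKM (log2 fold change -1.10).

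Among targets below the filter, CXCL2, a neutrophil chemokine, went from a mean of 0.0347 to 1.73 FPKM and PTGS2, the inducible cyclooxygenase, from 0.127 to 1.58 FPKM. Not all such targets rose. CCL5 went from a mean of 0.895 to 0.647 FPKM and CSF1 from 1.06 to 0.735 FPKM. The groups overlapped for IL6, CXCL1 and ICAM1. All of these were named after their values were seen and none was tested in the fit above 1 FPKM.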
